A study of Homo sapiens with 2 samples.

Results

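The epithelial and mesenchymal state genes described here were 10 genes selected by symbol from the deposited tables, out of 27685 genes listed. They were the adhesion genes CDH1 and EPCAM, the mesenchymal structure genes CDH2, VIM and FN1, and the transcription factor genes SNAI1, SNAI2, ZEB1, ZEB2 and TWIST1. They had 65 of the 63714 transcripts listed. RNA was measured in 2 established human cell lines, H2087 and H596, both labelled as lung adenocarcinoma, untreated, and grown in RPMI medium with 10% fetal bovine serum. A stranded mRNA library was sequenced from total RNA of each cell line, and no normal tissue or treated culture was analysed here. With 1 library per cell line, levels could not be checked against a replicate, no test between the cell lines was possible, and a difference between them describes these libraries only.

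Epithelial cells hold to one another through E-cadherin junctions and carry keratin filaments, whereas mesenchymal cells typically carry N-cadherin, vimentin filaments and a fibronectin matrix. Epithelial-mesenchymal transition is the passage from the first state to the second, and carcinoma cells are often found in states between the ends. The SNAI, ZEB and TWIST transcription factors are its best-known drivers, and SNAI and ZEB proteins bind E-box sequences and can repress CDH1.

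Levels were compared as FPKM, fragments a measure relative to transcript length and library size, so that levels can be compared between genes. The total estimated count was 46961500 in H2087 and 55387847 in H596, a ratio of 1.18. Each level is given with its 95% Wilson interval, and each fold with its exact 95% interval. They cover counting error only and not variation between libraries. PCR copies cannot be separated without molecular identifiers and would make the intervals too narrow. Where a count was 0, the limit is the FPKM that 3 counts would give. All 20 genes of a list of constitutively expressed genes had counts in both libraries, the lowest being 623 in H2087 and 1027 in H596.

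Both libraries carried the markers of an epithelial carcinoma. EPCAM, KRT7, KRT8, KRT18 and KRT19, 5 of 5 markers, had an FPKM of at least 1 in each library, with a summed FPKM of 7826 in H2087 and 3626 in H596. Of 10 fibroblast markers, 7 were at 0 in each library, and their summed FPKM was 3.97 in H2087 and 10.7 in H596. In H2087 this sum was mostly COL1A1 (FPKM of 3.89), while in H596 it was mostly DCN (FPKM of 9.77). Of 6 endothelial markers, 2 were at 0 in H2087 and 3 in H596, with summed FPKM of 2.57 and 1.02. Of 8 leukocyte markers, 3 were at 0 in H2087 and 5 in H596. Almost all of their summed FPKM, 131 in H2087 and 25.7 in H596, came from CD68, and PTPRC, the pan-leukocyte marker, was at 0 in both libraries. The part of other cells in the levels below was not tested, and in bulk RNA a smaller share of cells with a transcript and less of it per cell cannot be told apart.

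The mesenchymal members were not all higher in the same library. CDH1 and EPCAM were present in both libraries, VIM and FN1 were high in H2087 and absent or low in H596, and CDH2, SNAI2 and TWIST1 were higher in H596 or found there alone. Genes were compared where their FPKM averaged at least 1 over the libraries. Of 13048 such genes, 18.2% were at least 2-fold higher in H596 and 14.2% at least 2-fold lower, on the log2(FPKM + 1) scale. Of the 10 members, 7 passed this filter. CDH2, SNAI2 and TWIST1 were at least 2-fold higher in H596, EPCAM, VIM and FN1 at least 2-fold lower, and CDH1 neither. CDH2, VIM and TWIST1 were at 0 in the other library. They passed only through the library in which they were high, so they had to differ. SNAI2, at 0.890 FPKM in H2087, also passed only through H596. Nothing further is read from the counts of 3 and 3. SNAI1, ZEB1 and ZEB2 were below the filter.

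**Figure D1:**
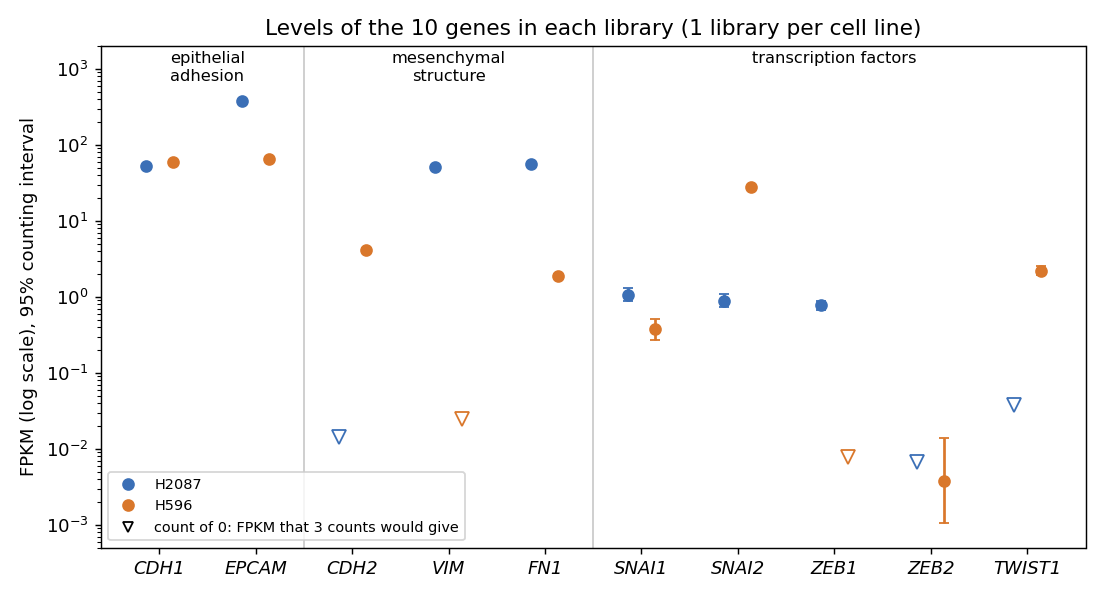
FPKM on a log scale of the 10 genes in H2087 (blue) and H596 (orange), 1 library each, with 95% counting intervals. Open triangles mark a count of 0 and stand at the FPKM that 3 counts would give. CDH1 lay at 52.3 and 59.6, whereas VIM and FN1 were high in H2087 and SNAI2 was high in H596.

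CDH1 (gene 999, chromosome 16, 68771193 to 68869445 on hg19) encodes E-cadherin, the calcium-dependent adhesion protein of epithelial junctions. Its level was 52.3 FPKM (51.3 to 53.2) in H2087 and 59.6 FPKM (58.7 to 60.5) in H596, from 12065 and 16282 counts. The levels differed beyond counting error, but only 1.14-fold (1.11 to 1.17). The difference of log2(FPKM + 1), 0.19, lay close to the median of all genes tested, 0.12. In both libraries the transcript NM_004360 held nearly all of it, 98.9% of the gene's FPKM in H2087 and 98.4% in H596.

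EPCAM (gene 4072, chromosome 2, 47596287 to 47614167) encodes a surface adhesion protein found on most carcinomas. H2087 had 375 FPKM (370.5 to 379) from 30848 counts, and H596 had 65.0 FPKM (63.4 to 66.6) from 6340 counts. EPCAM was thus 5.76-fold (5.61 to 5.92) higher in H2087, a difference of -2.51 for H596 minus H2087, and 391 tested genes (3% of those tested) were as far or farther in that direction. In H596 it was nevertheless the highest of the 10 members. The ratio of EPCAM to CDH1 within a library was 7.17 (7.02 to 7.32) in H2087 and 1.09 (1.06 to 1.12) in H596, so that the level of the pair was uneven in the former and nearly equal in the latter.

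CDH2 (gene 1000, chromosome 18, 25530927 to 25757410) encodes N-cadherin, the cadherin of neural and mesenchymal cells. It had 0 counts in H2087, where 3 counts would give 0.0144 FPKM. In H596 it had 1026 counts and 4.17 FPKM (3.92 to 4.43), all of it from NM_001792, and the shorter NM_001308176 was at 0. CDH2 was therefore at least 289-fold higher in H596. CDH1 was not lower in the library that had CDH2. In H596, CDH1 was 14.3-fold (13.4 to 15.2) above CDH2, and in H2087 it was at least 3622-fold above.

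VIM (gene 7431, chromosome 10, 17270258 to 17279592) encodes vimentin, the intermediate filament protein of mesenchymal cells that many cultured carcinoma cells also make. H2087 had 5306 counts of its single transcript, NM_003380, and 51.8 FPKM (50.4 to 53.2). H596 had 0 counts, where 3 counts would give 0.0248 FPKM. VIM was at least 2094-fold higher in H2087, with a difference of -5.72 that restates its level in H2087. In H2087 its level could not be told from that of CDH1, the ratio of VIM to CDH1 being 0.992 (0.960 to 1.02). In H596 the same ratio was at most 0.000415.

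A count of 0 for so abundant a gene was rare. Of 1917 genes with at least as many counts as VIM in H2087, 8 were at 0 in H596, VIM among them. KRT18, a keratin filament gene, stood 69.6-fold (67.7 to 71.5) above VIM in H2087. VIM-AS1, whose listed position overlaps VIM by 1727 bases, had 159 counts in H2087 and 5 in H596. Whether the counting used strand is not given in the sources used here, so reads in the overlap cannot be assigned with certainty. In H596 the pair had 5 counts in all.

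FN1 (gene 2335, chromosome 2, 216225163 to 216300793) encodes fibronectin, a matrix glycoprotein bound by integrins. H2087 had 21923 counts and 55.1 FPKM (54.4 to 55.8), and H596 had 883 counts and 1.88 FPKM (1.76 to 2.01). FN1 was 29.3-fold (27.4 to 31.3) higher in H2087, and 75 tested genes (0.575%) differed as far in that direction, with a difference of -4.28. In H2087 it stood just above CDH1, at a ratio of 1.05 (1.03 to 1.08), and in H596 at 0.0316 (0.0295 to 0.0338) of CDH1.

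FN1 had 10 listed transcripts, of which 10 were above 0 in H2087 and 7 in H596. NM_212476 held the largest share in both libraries, 22.7% of the gene's FPKM in H2087 and 28.4% in H596. NM_002026 held 16.1% and 20.6%, and NM_212478 held 14.1% and 11.4%. Against these shared transcripts, NM_212474 (20.9%) and NM_212482 (15%) were major in H2087 and at 0 and 0.25% in H596. NM_001306131 and NM_001306132 went the other way, from 2.75% and 2.51% in H2087 to 23.4% and 15.2% in H596. Apart from the shorter NM_054034, of 2383 bases, the transcripts overlap over most of their length and differ in a few alternative exons. The division of FPKM among transcripts is therefore an estimate, and in H596 it rested on 883 counts in all.

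**Figure D2:**
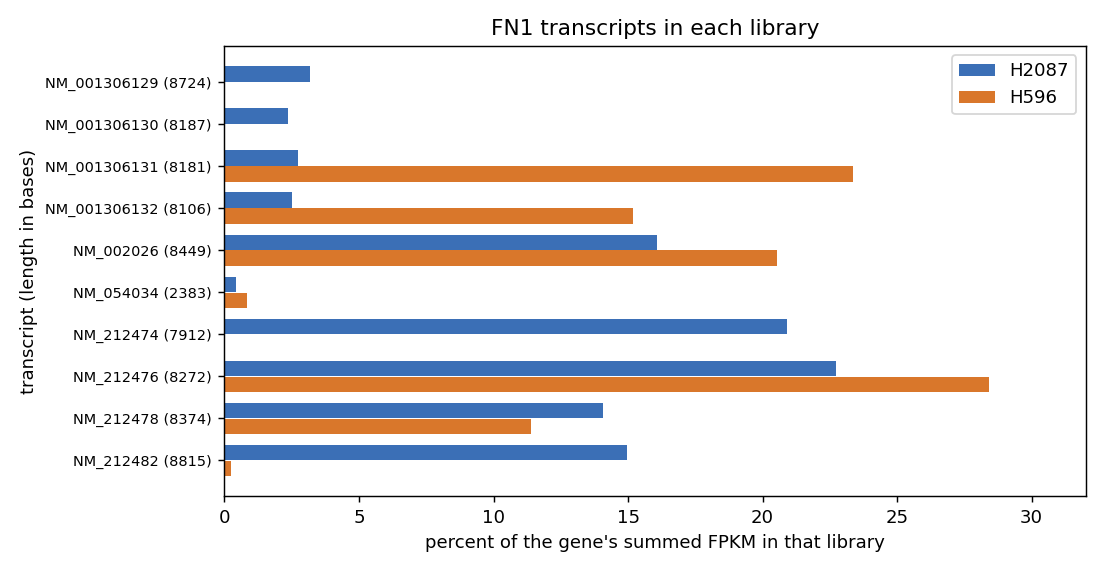
Percent of the gene's summed FPKM held by each of the 10 FN1 transcripts in H2087 (blue) and H596 (orange), 1 library each, with the transcript's length in bases beside its name. NM_212476 was the largest in both, at 22.7% and 28.4%, whereas NM_212474 held 20.9% in H2087 and was at 0 in H596.

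The promoters of VIM and FN1 are shown because both genes were high in H2087 and at 0 or low in H596. They are RefSeq sequences on GRCh38.p14, from 250 bases before the transcription start to position -31. Such windows were matched for CDH2, VIM, FN1, ZEB1 and ZEB2, 5 of the 10 members, and not for CDH1, EPCAM, SNAI1, SNAI2 and TWIST1. The letters searched were CACCTG (an E-box), TGACGTCA (a cAMP response element), GGGCGG (a GC box) and TATAA, on both strands, and matches are in capitals. VIM lies at chr10:17227991-17228210 on the forward strand and FN1 at chr2:215436099-215436318 on the reverse strand.
VIM: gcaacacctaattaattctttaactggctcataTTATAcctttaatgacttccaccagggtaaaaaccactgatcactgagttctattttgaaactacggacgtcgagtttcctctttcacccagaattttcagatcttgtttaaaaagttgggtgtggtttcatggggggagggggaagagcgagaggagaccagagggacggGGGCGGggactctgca
FN1: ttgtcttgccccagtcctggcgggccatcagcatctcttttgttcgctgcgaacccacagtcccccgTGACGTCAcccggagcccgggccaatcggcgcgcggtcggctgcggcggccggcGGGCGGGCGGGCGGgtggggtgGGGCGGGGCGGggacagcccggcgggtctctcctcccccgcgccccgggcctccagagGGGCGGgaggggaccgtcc

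In the whole window of 300 bases, which runs to 50 bases after the start, VIM had a GC content of 48% with 10 CpG dinucleotides and FN1 had 76.7% with 38. The medians of 35116 such windows were 58.7% and 14. FN1 held 1 TGACGTCA, 183 bases before the start, and 6 GGGCGG, some of them overlapping, whereas VIM held 1 GGGCGG, 46 bases before the start. TGACGTCA was present in 1.85% of all windows and GGGCGG in 45%. TATAA or its complement stood at position -28 in FN1, beyond the stretch printed, and at position -217 in VIM, and occurred in 20.4% of all windows. Neither window held CACCTG, which occurred in 20.6%. A match of these letters is a description and not a measured binding site.

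The transcription factor genes were all lower than CDH1, EPCAM, VIM and FN1 in H2087, and in H596 SNAI2 alone stood above 10 FPKM. SNAI1 (gene 6615, chromosome 20, 48599513 to 48605420), which encodes Snail, had 88 counts and 1.07 FPKM (0.870 to 1.32) in H2087. In H596 it had 37 counts and 0.374 FPKM (0.271 to 0.516). It was 2.86-fold (1.93 to 4.33) higher in H2087, beyond counting error, but its level was low in both libraries.

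SNAI2 (gene 6591, chromosome 8, 49830239 to 49833999) encodes Slug, a relative of Snail that is also found in basal epithelial cells. It had 90 counts and 0.890 FPKM (0.724 to 1.09) in H2087 against 3338 counts and 27.9 FPKM (27.0 to 28.9) in H596. SNAI2 was 31.4-fold (25.4 to 39.1) higher in H596, with a difference of 3.93. The ratio of SNAI2 to SNAI1 was 0.830 (0.612 to 1.13) in H2087, where they could not be told apart, and 74.5 (54.0 to 106) in H596. The high SNAI2 level in H596 stood beside a CDH1 level of 59.6 FPKM.

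TWIST1 (gene 7291, chromosome 7, 19155091 to 19157295) encodes a basic helix-loop-helix factor of mesoderm and neural crest. It had 0 counts in H2087, where 3 counts would give 0.0375 FPKM, and 210 counts and 2.22 FPKM (1.94 to 2.54) in H596. It was at least 59.1-fold higher in H596. Its difference of 1.69 restates its level in H596 and was 4.53 with a pseudocount of 0.1. Its relative TWIST2 was the reverse, with 118 counts and 2.13 FPKM in H2087 and 0 counts in H596. Each cell line thus had a transcript of 1 of the 2 TWIST genes.

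ZEB1 (gene 6935, chromosome 10, 31607424 to 31818742) encodes a zinc finger repressor of epithelial genes. It had 247 counts and 0.771 FPKM (0.680 to 0.873) in H2087 and 0 counts in H596, where 3 counts would give 0.00791 FPKM. It was at least 97.5-fold higher in H2087, from a low level. Of its 41 listed transcripts, 5 were above 0 in H2087, and NM_001323638 and NM_001323646 held 51.7% and 31.0% of the gene's FPKM. ZEB1-AS1, which overlaps ZEB1 by 601 bases, moved in the same direction, with 472 counts in H2087 and 65 in H596. ZEB2 (gene 9839, chromosome 2, 145141942 to 145277958), the close relative of ZEB1, had 0 counts in H2087 and 2 in H596, at or under the limit in both, and no fold is given. In H2087, SNAI1, SNAI2 and ZEB1, at 0.771 to 1.07 FPKM, stood beside high VIM and FN1.

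ZEB1 and ZEB2 are classical targets of the miR-200 family and miR-205, short RNAs of epithelial cells that pair by their seed, bases 2 to 8, with sites in the 3′ untranslated region. The ZEB factors in turn repress the miR-200 genes. The mature miRNAs are shown from RefSeq, with the seed in capitals, because the seeds define the sites counted in the members. They fall into 3 groups by seed.
hsa-miR-200b-3p: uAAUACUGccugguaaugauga
hsa-miR-200c-3p: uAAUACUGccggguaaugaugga
hsa-miR-429: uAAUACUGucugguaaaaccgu
hsa-miR-200a-3p: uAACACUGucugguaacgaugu
hsa-miR-141-3p: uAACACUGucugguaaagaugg
hsa-miR-205-5p: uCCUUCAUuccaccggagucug

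The seed AAUACUG pairs with CAGTATT in the DNA of the transcript strand, AACACUG with CAGTGTT and CCUUCAU with ATGAAGG. In the first 1500 bases after the stop codon (GENCODE release 44 lifted to GRCh37), ZEB1 held 5 CAGTATT, 1 CAGTGTT and 1 ATGAAGG. ZEB2 held 5 CAGTATT, 3 CAGTGTT and 0 ATGAAGG. The whole regions are 2540 bases long in ZEB1 and 5370 in ZEB2, so sites farther on were not counted. Of 7680 genes with a 3′ untranslated region of at least 1500 bases, 17% held CAGTATT at least once, and 2 genes (0.026%), ZEB1 and ZEB2 themselves, held 5 or more. CAGTGTT occurred in 19% of these genes, with 3 or more in 13 (0.169%), and ATGAAGG in 11.1%. Of the other members, whose regions were searched whole or to the same limit, FN1 held 2 CAGTATT and SNAI2 held 1, and CDH1, CDH2, EPCAM, SNAI1, TWIST1 and VIM held none of the 3.

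The first CAGTATT sites of ZEB1 and ZEB2 are printed with the bases before them, and the ATGAAGG site of ZEB1, as DNA of the transcript strand with the match in capitals. The ZEB1 sites lie at chr10:31816546-31816568, chr10:31816640-31816662 and chr10:31816995-31817017 on the forward strand of GRCh37. Those of ZEB2 lie at chr2:145146619-145146641 and chr2:145146556-145146578 on the reverse strand.
ZEB1, 369 bases after the stop codon: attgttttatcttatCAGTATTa
ZEB1, 463 bases after the stop codon: atgctaaatccgcttCAGTATTt
ZEB1, 818 bases after the stop codon: aatatgtggtaacatATGAAGGa
ZEB2, 392 bases after the stop codon: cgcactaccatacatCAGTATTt
ZEB2, 455 bases after the stop codon: cgcactacaatgcatCAGTATTa

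**Figure D3:**
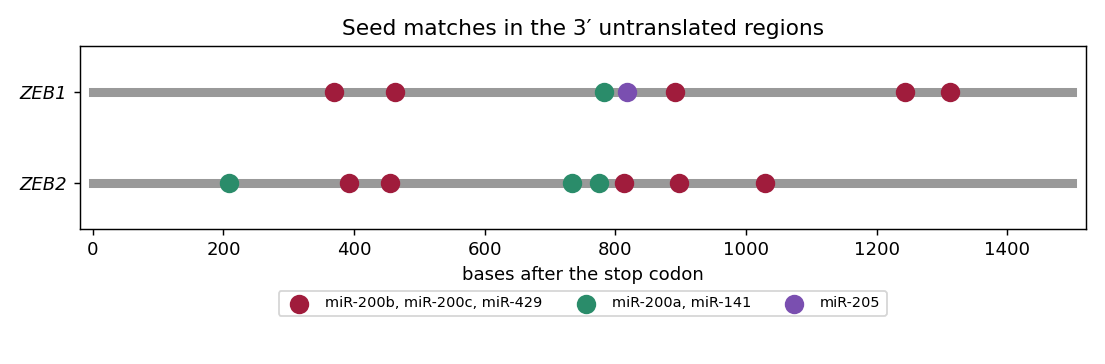
Positions of seed matches in the first 1500 bases after the stop codon of ZEB1 and ZEB2, in bases, colored by miRNA seed group. Each gene holds 5 matches to the seed of miR-200b, miR-200c and miR-429, ZEB1 1 and ZEB2 3 to that of miR-200a and miR-141, and ZEB1 1 to that of miR-205.

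Mature miRNAs are not measured by mRNA libraries, but some precursor genes had counts. MIR205HG, the host transcript of miR-205, had 87 counts and 1.92 FPKM in H2087 and 10302 counts and 192 FPKM in H596, a 100.1-fold (81.1 to 125) higher level in H596. The MIR205 gene followed with 3 and 120 counts. MIR205 and MIR205HG share a locus, and MIR205 passed the filter only through H596. All 5 miR-200 genes had more counts in H596, whose total count was 1.18-fold that of H2087. They are not independent, as MIR200A, MIR200B and MIR429 lie together on chromosome 1 and MIR200C and MIR141 on chromosome 12. MIR429 had 6 and 21 counts, 3.36-fold (1.31 to 10.2) higher. MIR141 had 4 and 9, a fold of 2.25 (0.629 to 10.0) that lay within counting error. MIR200A, MIR200B and MIR200C had 0 counts in H2087 and 4, 10 and 1 in H596. Of the 7 precursor genes, 4 passed the filter, 3 of them at least 2-fold higher in H596 beside 18.2% of all genes tested, with a median difference of 2.54. H596, the library with 0 ZEB1 counts, was the one with more MIR205HG, and whether they are linked was not tested.

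Within H2087 the members ran from EPCAM (375 FPKM) through FN1 (55.1), CDH1 (52.3) and VIM (51.8) to SNAI1 (1.07), SNAI2 (0.890) and ZEB1 (0.771), with CDH2, ZEB2 and TWIST1 at 0. The intervals of CDH1 and VIM overlapped, as did those of SNAI1 with SNAI2 and of SNAI2 with ZEB1. Within H596 they ran from EPCAM (65.0 FPKM) through CDH1 (59.6), SNAI2 (27.9), CDH2 (4.17), TWIST1 (2.22) and FN1 (1.88) to SNAI1 (0.374) and ZEB2 (0.00381), with VIM and ZEB1 at 0. There only TWIST1 and FN1 overlapped among neighbours. Thus CDH1 and EPCAM led the members in H596 by level, whereas in H2087 FN1 stood just above CDH1 and VIM could not be told from it.

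**Figure D4:**
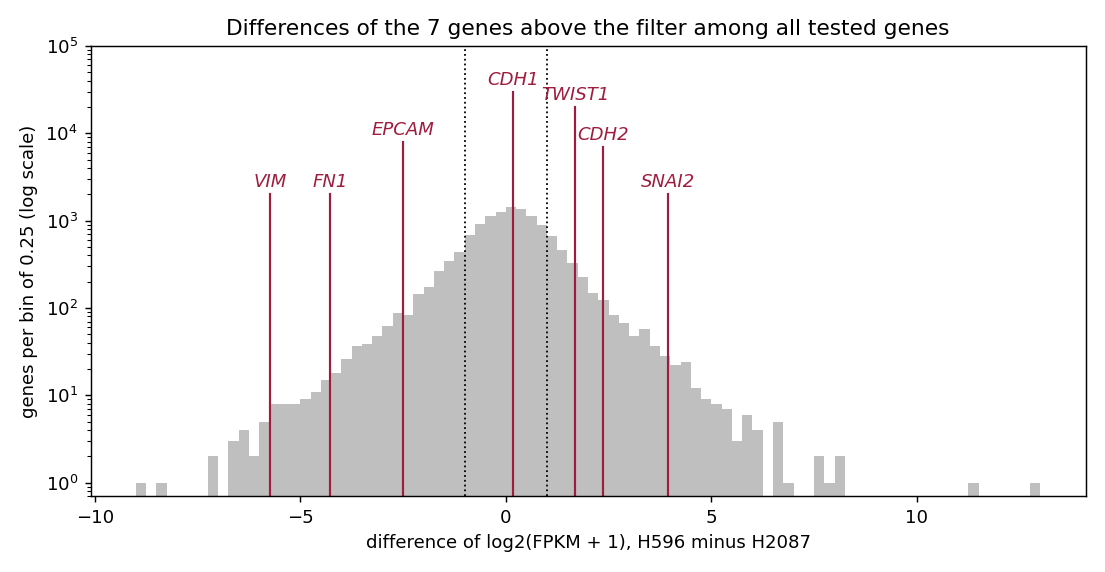
Distribution over the 13048 genes tested of the H596 minus H2087 difference of log2(FPKM + 1) (gray, genes per bin on a log scale), with the 7 members above the filter marked by lines whose heights only separate the labels. Dotted lines mark a 2-fold difference. VIM (-5.72) and FN1 (-4.28) lie far to the left, SNAI2 (3.93) to the right and CDH1 (0.19) near the median of 0.12.

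Genes that work with the members were taken from lists, of which 140 genes in all passed the filter, 36 of them at least 2-fold higher and 28 at least 2-fold lower in H596. Of 17 other cadherins, 4 passed the filter, 1 of them higher, 2 lower and 1 neither, with a median difference of -0.53. CDH3, the P-cadherin of basal epithelium, was the most abundant at 102 FPKM in H2087 and 99.6 in H596. In both libraries it exceeded CDH1, which was 0.512 (0.500 to 0.524) of CDH3 in H2087 and 0.598 (0.586 to 0.611) in H596. The type II cadherins CDH6 and CDH11 were divided between the libraries. CDH6 had 0 counts in H2087 and 6019 counts, 12.4 FPKM, in H596, and was at least 1695-fold higher there. CDH11 had 4.28 FPKM from 1387 counts in H2087 and 3 counts in H596. CDH6 was thus above CDH2 in H596.

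Of 14 genes of adherens junction partners, 13 passed the filter, 5 higher, 1 lower and 7 neither, with a median difference of 0.22. CTNND2, a neural catenin, was at 0 in H2087 and at 22.9 FPKM in H596, and NECTIN1, a nectin adhesion receptor, was 11.8-fold (11.3 to 12.3) higher in H596, at 9.90 and 117 FPKM. NECTIN3, NECTIN4 and JUP (plakoglobin) were higher as well, JUP at 67.8 and 173 FPKM, and AFDN (afadin) was lower at 36.7 and 17.4 FPKM. CTNNA1, the alpha-catenin that links cadherins to actin, lay at 220.4 and 129 FPKM and was less than 2-fold apart.

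The list of 35 genes of the epithelial programme was present throughout, with an FPKM of at least 1 for 35 of 35 in each library. It had 6 genes higher in H596, 6 lower and 23 neither, with a median difference of 0.19, and with TPM 8 were higher and 5 lower. The higher genes included DSP (desmoplakin, 5.44 and 117 FPKM), EHF (an epithelial ETS factor, 6.93 and 62.1 FPKM) and KRT19 (561 and 2183 FPKM). The lower genes included CLDN3 (93.8 and 2.63 FPKM), OCLN (11.8 and 3.0 FPKM), both of tight junctions, and KRT18 (3607 and 234 FPKM) and KRT8 (2493 and 536 FPKM), the keratin pair of simple epithelia. KRT8 and KRT18 overlap in their listed positions. EPCAM was lower in H596 with KRT8 and KRT18.

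Of 35 genes of the mesenchymal programme, 25 passed the filter, 7 higher, 10 lower and 8 neither, with a median difference of -0.56. LGALS1 (galectin-1) had 568 FPKM in H2087 and 4.99 in H596, TNC (tenascin-C, a matrix protein) had 60.5 and 0.461, S100A4 had 120 and 30.1, and LOXL2 (a collagen crosslinking enzyme) had 3.63 and 0.290. These stood in the direction of VIM and FN1. The higher genes were led by FSTL1 at 1.15 and 32.5 FPKM and MMP14, a membrane-bound matrix protease, at 7.44 and 48.4 FPKM. COL5A1, which had 0 counts in H2087 and 1299 in H596, stood with CDH2 in this respect. TGFBI, a matrix protein gene, was also higher in H596, with 26894 and 73192 counts.

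Of 15 other transcription factors of the transition, 10 passed the filter, 2 higher, 4 lower and 4 neither, with a median difference of -0.72. FOXC1 had 4.33 FPKM in H2087 and 33.9 in H596, and TCF4, which binds E-boxes, had 0 and 2.33 FPKM. ETS1 (19.2 and 2.19 FPKM), SOX9 (7.78 and 0.408 FPKM), HMGA2 (40.0 and 8.33 FPKM) and TWIST2 were lower in H596. Of the 24 corepressors and turnover factors of SNAI and ZEB proteins that were found, 4 were higher, 3 lower and 17 neither, with a median difference of 0.04. WTIP and AJUBA, LIM-domain proteins that bind SNAI factors, were higher in H596, with 3 and 622 counts for WTIP and 21.5 and 85.7 FPKM for AJUBA. CTBP2, a corepressor, had 60.0 and 21.8 FPKM, and HDAC1 lay at 93.9 and 74.0 FPKM.

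Of 14 genes of the TGF-beta pathway, an inducer of the transition, 13 passed the filter, 4 higher, 1 lower and 8 neither, with a median difference of 0.75. This balance depended on the scaling, with 3 higher and 3 lower under TMM scaling or centring, and 7 and 0 with TPM. LTBP1, which stores latent TGF-beta in the matrix, had 0.392 and 14 FPKM, and SMAD6, an inhibitory SMAD, had 0.411 and 7.98 FPKM. SMAD3 lay at 30.1 and 36.8 FPKM, and LTBP3, the 1 gene lower in H596, had 55.4 and 26.8 FPKM. Of 14 genes listed as fibronectin receptors, 10 passed the filter, 3 higher, 1 lower and 6 neither, with a median difference of 0.61. The list also holds the tensin genes TNS1 and TNS3, which do not encode receptors. TNS3, at 16.4 and 69.2 FPKM, was among the 3 higher. ITGB8 had 0.299 and 17.9 FPKM and ITGB5 had 28.6 and 7.70 FPKM. Of 8 genes of vimentin filament partners, 2 passed the filter. PLEC (plectin) had 25.7 and 71.4 FPKM and SYNM (synemin) had 2.41 and 4.63 FPKM. NES (nestin), below the filter, had 430 and 12 counts, and GFAP had 97 and 0, so that these 2 filament genes were lower in H596 with VIM, at low levels. Against a background of 18.2% and 14.2%, these counts are given as a description, and nothing particular to a list is read from them.

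**Figure D5:**
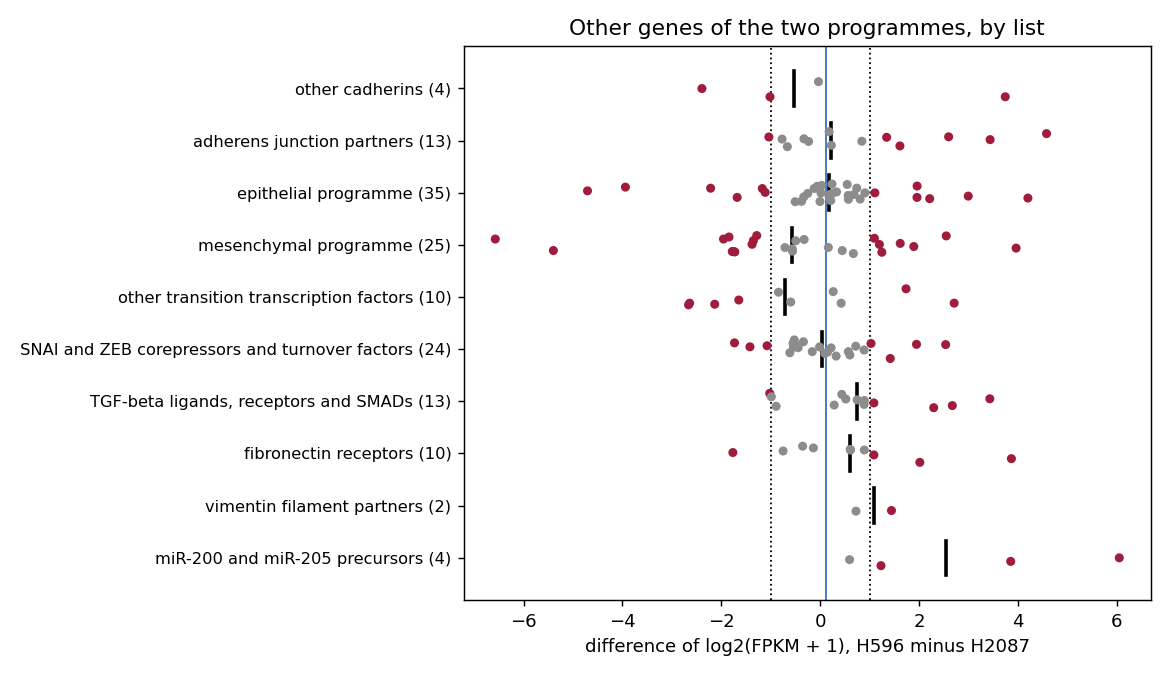
H596 minus H2087 difference of log2(FPKM + 1) for each gene above the filter in 10 lists, with the number of genes in parentheses. Red points differ at least 2-fold, gray points less, black bars are list medians, and the blue line is the median of all genes tested, 0.12. The epithelial programme spreads to both sides around a median of 0.19, and the mesenchymal programme around -0.56.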

How the data were processed

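RNA-seq tables of 2 libraries were used, 1 of untreated H2087 cells and 1 of untreated H596 cells. According to the submitters' processing notes, base calls were converted using bcl2fastq 1.8.4, and Trimmomatic, HISAT2 2.0.5 and StringTie 1.3.3b were used with GRCh37 (hg19). Per gene and transcript, the authors gave an estimated count, always a whole number. How these were derived, and whether by strand or by read pair, is not given in the sources used here. Counting both reads of a pair would make the intervals too narrow. The authors also gave FPKM, scaled by transcript length and library size, which was used as deposited. Precision is set by total estimated counts of 46961500 in H2087 and 55387847 in H596.

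Differences are H596 minus H2087 on the log2(FPKM + 1) scale, over genes whose FPKM averaged at least 1, and a gene was called at a difference of at least 1 in size, 2-fold on that scale. This scale understates the differences of low genes. Intervals are 95% Wilson for levels and exact (Clopper-Pearson) for folds (scipy 1.17.1, pandas 2.3.3, numpy 2.4.6, Python 3.11.15, figures with matplotlib 3.10.9). Both methods and the calls were run on counts simulated from those of H2087 with counting error only. The simulation held no PCR copies and no variation between libraries, so it checks the calculation and not how well it suits these data. For 2 symbols with 2 entries each, the entry with the larger mean was kept. The members, the gene lists and the rule for named genes were chosen with earlier results of these data known. The rule names all members and, of each list, up to 5 genes per direction past 2-fold and the 2 most abundant; transcripts with at least 10% of a member's FPKM; genes overlapping a member; and the 2 genes nearest to a member in level. Not every gene the rule names is printed, and 1 withheld item is not reported here. CDH4, CDH10, FOXC2, SNAI3, SPARC, WNT5A, ITGB3, NES, GFAP, MIR141, MIR200A, MIR200B, MIR200C and the genes of the closing observations on zeros and neighbours lay outside it and were chosen after their values were seen, as were the sequences and, for transcripts below 10%, those of FN1. Alternatives were a pseudocount of 0.1, TMM scaling (edgeR 4.0.16, R 4.3.3), TPM, centring on the median difference, no filter, a mean FPKM of at least 10, transcript values, and counts in place of FPKM. Promoter and miRNA sequences are from RefSeq on GRCh38.p14, and no coordinates were converted between builds.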

Additional observations from a re-analysis of the deposited data

How the results depend on the processing

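No paired analysis was possible because 1 library was analysed per cell line, nor could any library be left out. Under a pseudocount of 0.1, TMM scaling, TPM, centring, and both transcript-based values, the members at least 2-fold apart numbered 3 higher and 3 lower in H596, as they did with no filter. Of 60 member differences recomputed under these alternatives, 59 kept their direction, and ZEB2, at 0 and 2 counts, turned to -0.11 with centring. Many of these could not turn, so the 59 is no measure of robustness. A pseudocount of 0.1 keeps the sign, and summed transcripts gave the same values as the gene. A member at 0 in 1 library can turn only with centring. The range was -9.02 to -5.72 for VIM, -4.80 to -3.14 for FN1, 3.82 to 4.82 for SNAI2, 0.05 to 0.37 for CDH1 and -2.64 to -2.34 for EPCAM. It was wider in proportion for TWIST1 (1.57 to 4.53), CDH2 (2.25 to 5.42), ZEB1 (-3.12 to -0.48) and SNAI1 (-1.31 to -0.59). With a mean FPKM of at least 10, fewer genes were tested, and 1 member was higher. Then 1045 of all genes were higher and 941 lower, against 2376 and 1850, and 20 list genes were higher and 18 lower, against 36 and 28. Estimated counts, which are not relative to length, moved the ratio of CDH1 to CDH2 to at least 4022 in H2087 and 15.9 in H596, and that of VIM to CDH1 to 0.440 in H2087 and at most 0.000184 in H596. TPM shifted the median difference of all genes from 0.12 to 0.30 and TMM scaling to 0.00. The share of called genes that were higher was 56.2% as deposited, 65.6% with TPM and 49.1% with TMM scaling. Depth limits ZEB2, at 0 and 2 counts, and the miR-200 precursors, at 21 counts or fewer.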

Other observations

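Of the genes with at least as many counts as VIM in H2087 and 0 counts in H596, the 7 besides VIM were GSTP1 (19913 counts in H2087), CHI3L1 (12400), DPYSL3 (8661), SFTPA1 (8553), MT1E (8485), GPX3 (6658) and AKAP2 (5694). MT1E belongs to a multigene family and SFTPA1 has a near-identical copy, so their counts are uncertain. The same count for other members at 0 was 154 of 11213 genes for ZEB1 in H596, 68 of 8728 for CDH2 in H2087 and 178 of 11833 for TWIST1 in H2087. A higher count minimum leaves fewer zeros by construction, and the members compared were at 0 in different libraries.

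The 10 tested genes nearest to each member on its chromosome were described in the same way. Around VIM, 10 of 10 were lower in H596, 3 at least 2-fold so, with a median difference of -0.66 against -5.72 for VIM itself. Around CDH2, 9 of 10 were higher and 7 at least 2-fold so, with a median of 1.83, and the desmosomal cadherin genes DSC2, DSG2 and DSG3 were among them. Around TWIST1 the median was 1.03, with 7 of 10 higher, ITGB8 among them. SNAI1 went against its neighbours, at -0.59 beside a median of 1.28 with 9 of 10 higher, and SNAI2, at 3.93, stood beside a median of -0.11. The other windows were mixed, with 4 of 10 higher around CDH1, EPCAM and ZEB1, 3 around FN1 and 6 around ZEB2. Of all genes tested, 18.2% were at least 2-fold higher and 14.2% at least 2-fold lower, with a median difference of 0.12. The share of all genes merely higher or lower was not counted. Neighbours share their place on the chromosome and are not independent of one another.

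Among genes expressed in both libraries, FAM96A and POLR1D lay nearest to CDH1 by distance of log2(FPKM + 1) over the 2 libraries (0.03 and 0.04), OS9 and DAZAP2 nearest to EPCAM (0.14 and 0.14) and FADS1 and IFI27 nearest to FN1 (0.04 and 0.18). Over 2 libraries, a small distance means a like pair of levels and no more. Listed genes at 0 in H596 and low in H2087 included SNAI3, with 136 counts, FOXC2, with 56, SPARC, with 85, WNT5A, with 61, ITGB3, with 177, and CDH4, with 57, while CDH10 had 0 counts in H2087 and 242 in H596.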
